A study of Mus musculus with 3 samples.

Results

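GLI3 binding was examined around the Zic and Glis genes, which encode the closest relatives of the GLI transcription factors, in mouse forelimb buds at E10.5 (32 to 35 somites). The loci were those of Zic1, Zic2, Zic4, Zic5, Glis1, Glis2 and Glis3, 7 genes in all. A peak was assigned to them when its summit lay within 100 kb of any transcription start site (TSS) annotated for one of these genes in GENCODE M21 on mm10, whatever its FDR. This gave 48 of the 17149 peaks in the list. The list came from chromatin immunoprecipitation and sequencing (ChIP-seq) against a FLAG epitope carried by the endogenous Gli3 protein. The study submitted 2 ChIP replicates and 1 input library, all from the same stage and a mixed strain background, with 2 litters per reaction. The genotype label of all 3 libraries reads wild type, although the series describes mice with a tagged Gli3 allele. Whole forelimb buds were pooled, so bound and unbound cells within a bud cannot be told apart.

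All 3 libraries are taken to stand behind a single list, although it does not state this itself. It holds no value for either replicate and no read depth for any library. Differences between peaks could therefore not be set against the spread between replicates, and no test was made. Intervals given for shares are 95% Wilson intervals. They cover counting error over peaks only, and neighboring peaks are not independent of each other. The expression of the 7 genes in these limb buds was not analysed here.

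ZIC and GLIS proteins share with GLI proteins a row of C2H2 zinc fingers that contact DNA, and several of them recognize GC-rich sequences that resemble the GLI site. ZIC proteins act in neural tube, neural crest and forebrain development. GLIS proteins are best known from kidney, pancreas and cellular reprogramming. GLI3 itself is processed to a repressor where Hedgehog (HH) ligand is absent, and in the limb bud this repressor restrains HH target genes in anterior cells. The Zic genes lie as divergent pairs. The annotated 5′ ends of Zic2 and Zic5 are 9758 bp apart on chromosome 14, and those of Zic1 and Zic4 are 3397 bp apart on chromosome 9. The pairs share their peaks, and 19 of the 48 peaks were within 100 kb of both genes of a pair. The 7 genes therefore form 5 separate loci.

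To show what was recovered at these genes, sequences are given for the best-ranked peak with an FDR under 0.05 among those inside or nearest to each family gene (Zic1 had none, and for Glis1 the neighboring intronic summit is added), for the highest-ranked pair at the Glis2 locus, which lies in a neighboring gene, and for every peak with a GLI motif. All are from the GRCm38.p6 genome (mm10), plus strand, 5′ to 3′. A GLI motif was defined as GACCACCCA on either strand (TGGGTGGTC when read on the plus strand for a minus-strand site), with at most 1 mismatch, found within 250 bp to either side of the summit. The peaks that follow held no such match, so their bases are in lower case throughout. Each run is centered on the summit, and the one at Glis3 is shortened to 29 bases because it lies in an untranslated region.
Glis1, intron, rank 393, chr4:107457822-107457922: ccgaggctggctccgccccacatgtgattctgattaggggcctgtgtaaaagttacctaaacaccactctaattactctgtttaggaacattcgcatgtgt
Glis1, intron, rank 441, chr4:107460627-107460727: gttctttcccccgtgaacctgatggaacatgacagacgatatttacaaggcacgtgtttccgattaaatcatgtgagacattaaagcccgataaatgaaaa
Zic2, upstream, rank 925, chr14:122474417-122474517: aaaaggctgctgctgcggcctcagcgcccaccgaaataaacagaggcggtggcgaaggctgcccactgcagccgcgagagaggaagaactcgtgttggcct
Glis2, promoter, rank 1705, chr16:4594337-4594437: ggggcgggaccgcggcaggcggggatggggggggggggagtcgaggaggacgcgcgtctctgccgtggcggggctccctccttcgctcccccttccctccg
Zic5, coding exon, rank 2535, chr14:122464932-122465032: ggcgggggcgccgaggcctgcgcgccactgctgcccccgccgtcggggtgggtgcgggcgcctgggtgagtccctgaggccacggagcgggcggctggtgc
Zic4, intron, rank 5771, chr9:91381532-91381632: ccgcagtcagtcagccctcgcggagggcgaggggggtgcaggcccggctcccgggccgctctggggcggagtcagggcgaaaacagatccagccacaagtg
Glis3, last exon, rank 3665, chr19:28258943-28258971: acattcatttttactgccatttcgtcctc
Coro7, intron near Glis2, rank 21, chr16:4658812-4658912: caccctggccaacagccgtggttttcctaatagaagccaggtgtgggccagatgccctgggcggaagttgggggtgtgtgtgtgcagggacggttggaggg
Coro7, intron near Glis2, rank 41, chr16:4651862-4651962: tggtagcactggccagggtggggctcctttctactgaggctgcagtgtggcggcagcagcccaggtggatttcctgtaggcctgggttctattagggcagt

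The 3 peaks with a GLI motif are printed around the match, whose bases are in capitals, to show how few there were and how each compares with the consensus.
Near Tfap4, Glis2 locus, rank 7928, chr16:4558392-4558452: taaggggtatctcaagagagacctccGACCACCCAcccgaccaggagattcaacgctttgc
Yipf1, Glis1 locus, rank 1128, chr4:107341615-107341675: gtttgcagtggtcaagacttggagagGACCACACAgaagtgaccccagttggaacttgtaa
Glis1 start, rank 9729, chr4:107434898-107434926: gtgtgtggcaTGGCTGGTCtcggagggcg

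Every Zic and Glis gene had listed GLI3 peaks within 100 kb, but most of the 48 were weak. Their maximum log2 fold enrichment over input, the authors' value for the strongest window in a peak, had a median of 2.24 (interquartile range 1.99 to 2.92). The median over the 17144 listed peaks on placed chromosomes was 2.23. An FDR under 0.05, the threshold that the study used for GLI3 binding regions, was met by 19 of the 48 peaks (39.6%, 27.0 to 53.7). It was met by 42.5% of all listed peaks, so the share at these loci was near the background. The weakest of the 19 was a peak in Glis1 (rank 6585, log2 2.37, FDR 0.0374). Just beyond the threshold was a peak in Zic4 (rank 7328, log2 2.31, FDR 0.0704). Among the 1000 highest-ranked peaks of the list, which are 5.83% of all placed peaks, were 7 of the 48 (14.6%). The share was 15.8% around Gli1, Gli2 and Gli3 and 17.9% around a list of 15 HH pathway genes that includes them. Of these 7, 4 were nearest to the start of a gene outside the family.

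**Figure D1:**
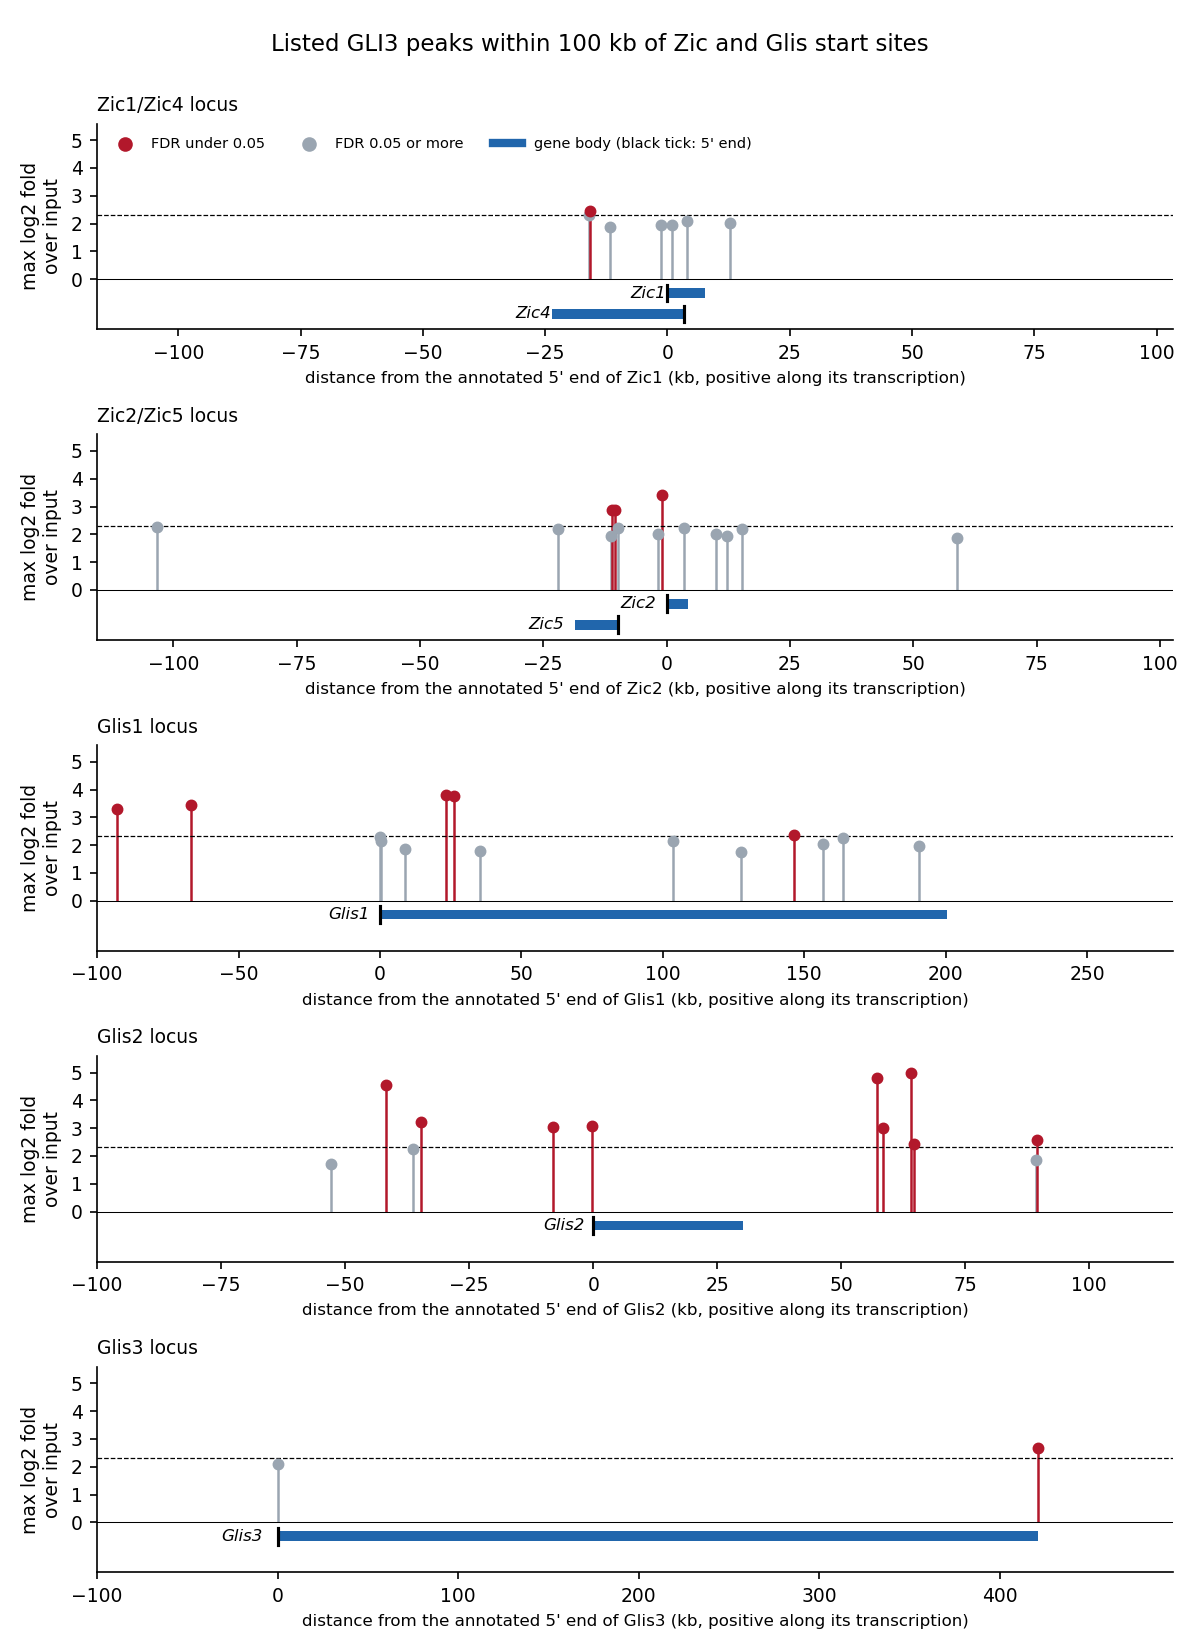
Each stem is 1 listed GLI3 peak, placed by the distance of its summit in kb from the annotated 5′ end of the named gene (x axis) and by its maximum log2 fold enrichment over input (y axis), for the 5 loci. Red stems have an FDR under 0.05, gray stems do not, blue bars are gene bodies and the dashed line is the lowest enrichment under that FDR, 2.31. The Zic1/Zic4 peaks stay at or near the line, Glis1 has a strong intronic pair, and the tallest stems at Glis2 lie away from the gene.

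The counts per gene ranged widely. Within 100 kb there were 14 listed peaks for Glis1, 13 for Zic5, 12 each for Zic2 and Glis2, 7 each for Zic1 and Zic4, and 2 for Glis3. The place of Glis1 rested on starts of noncoding transcripts, since with protein-coding starts alone it had 9 peaks, fewer than Zic5, Zic2 and Glis2. Listed peaks lay within 100 kb of 71.9% of 21938 protein-coding genes, with a median of 2 per gene. At least 14 peaks were found near 1.02% of these genes and at least 12 near 2.25%, whereas at least 2 were near 55.2%. These shares depend on how many TSSs a gene has, since each TSS widens the window searched. With its annotated starts the window of Glis1 covered 380.0 kb, that of Glis3 582 kb and those of the other loci 217 to 220.0 kb. Glis3 thus had the widest window and the fewest peaks, 3.44 per Mb, against 31.8 to 59.6 per Mb at the other loci and 6.29 per Mb over all placed chromosomes.

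At an FDR under 0.05 the order changed. Glis2 had 9 peaks, Glis1 had 5, Zic2 and Zic5 shared 3, Zic1 and Zic4 shared 1, and Glis3 had 1. Peaks under this FDR lay within 100 kb of 53.9% of protein-coding genes, so having at least 1, as all 7 members did, was common among genes. At least 9 were near 0.606% of genes and at least 5 near 5.69%. The Zic loci held 4 peaks under the threshold among 20 (20%, 8.07 to 41.6), and the Glis loci 15 among 28 (53.6%, 35.8 to 70.5). The share over all listed peaks, 42.5%, lies within the interval of the Glis loci and just above that of the Zic loci. Of the 15 Glis peaks under the threshold, 9 came from the Glis2 locus alone.

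**Figure D2:**
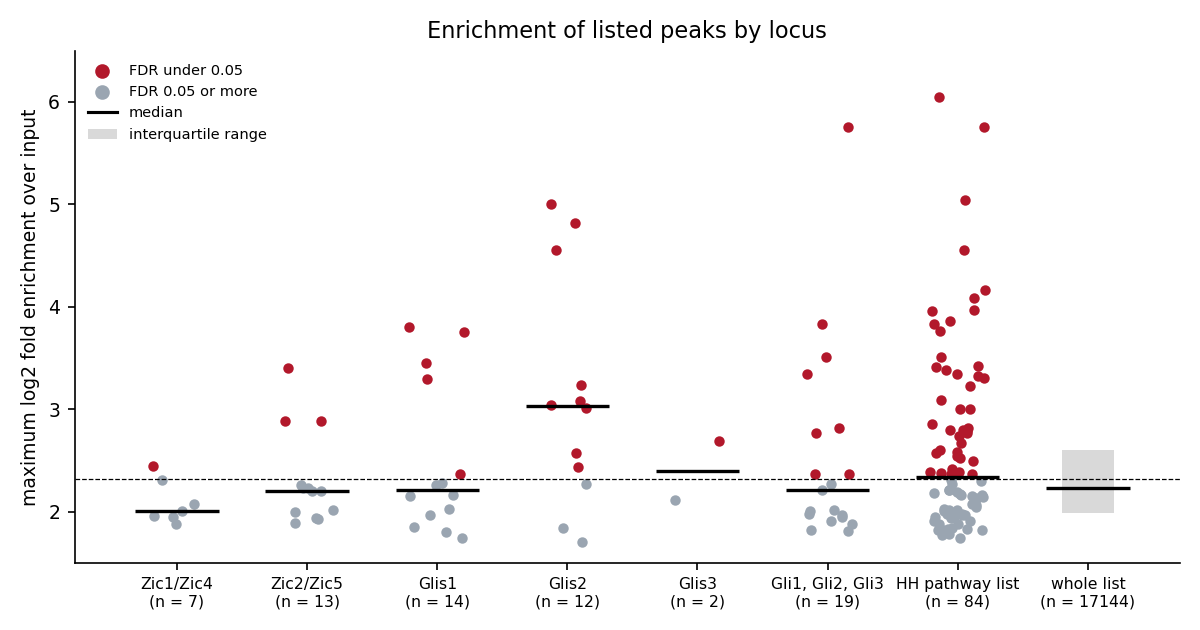
Each point is 1 listed peak within 100 kb of the genes named on the x axis, with its maximum log2 fold enrichment over input on the y axis. Black lines are medians, and for the whole list a gray box gives the interquartile range. The median at Glis2 (3.03) lies above that of the whole list (2.23) and the median at Zic1/Zic4 (2.00) below it. Peaks of Gli1, Gli2 and Gli3 are also part of the HH pathway list.

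Many of these peaks belong, by position, to other genes. The nearest protein-coding TSS was that of a Zic or Glis gene for 24 of the 48 peaks (50%) and for 8 of the 19 under the FDR threshold (42.1%). Summits fell inside the body of a Zic or Glis gene in 24 of 48 and in 7 of 19. By either criterion 30 of 48 and 10 of 19 could be placed at a family member. By annotation, 26 summits were in introns, 10 were intergenic, 6 were in coding exons, 4 in 5′ UTRs, 1 in a 3′ UTR and 1 in an exon of a noncoding transcript. The whole list was not annotated in this way, so these counts have no background beside them.

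Zic2, which is required for forebrain and neural crest development, had the best-ranked peak of the Zic family. It was 1350 bp long and lay on chromosome 14 from 122474050 to 122475399, with its summit 968 bp upstream of the Zic2 TSS (rank 925, log2 3.40, FDR 0 as listed). The peak overlapped the Zic2 promoter and ended before the TSS, and its summit was within a noncoding transcript, 2610035F20Rik. A weak peak of 100 bp lay 740 bp farther upstream (rank 12363, log2 2.02, FDR 0.438). Inside Zic2 a further weak peak was found in coding sequence (rank 8479, log2 2.23, FDR 0.133). Beyond the gene, 3 weak peaks lay nearest to Gm10837, with log2 values from 1.93 to 2.2.

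Zic5, the divergent partner of Zic2, carried its stronger peaks in its own coding sequence. A peak of 700 bp (122464750 to 122465449) had its summit 695 bp downstream of the Zic5 TSS (rank 2535, log2 2.89), and a peak of 300 bp (122464200 to 122464499) had its summit 1375 bp downstream (rank 2542, log2 2.88). Both had an FDR of 0 as listed. Another coding peak followed at 1580 bp (rank 14183, log2 1.93, FDR 0.727). At the Zic5 start itself, 10 bp from the TSS, the listed peak was weak (rank 8555, log2 2.23, FDR 0.133). The 3 coding peaks lay in very GC-rich sequence, and the GC content around the summits ranked 2535 and 2542 was 74.7% and 74.5%, against a median of 55.9% over the list. Of the 3 coding peaks, 2 thus had a higher listed enrichment than the peak at the start and 1 a lower one.

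Zic1 and Zic4 are expressed together in the dorsal neural tube and its cerebellar derivatives. Their locus had 7 listed peaks, all within 9466 bp of a start of either gene, and 6 of them lay inside the genes. Log2 enrichments ran from 1.87 to 2.44 with a median of 2.00, and 6 of 7 had an FDR of 0.05 or more. The exception was an intronic peak of Zic4 on chromosome 9 from 91381100 to 91381649 (rank 5771, log2 2.44, FDR 0.0208). Its summit was 2940 bp from the nearest protein-coding start of Zic4. The next peak, 335 bp away, was just beyond the threshold (rank 7328). At an FDR under 0.01, neither Zic1 nor Zic4 had any peak within 100 kb. The peak nearest to the Zic1 start, 971 bp inside the gene in coding sequence, had a log2 enrichment of 1.95 (rank 13633, FDR 0.727).

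Glis1, known for promoting reprogramming of somatic cells, had its strongest peaks inside the gene. A pair of summits 2805 bp apart lay in an intron, 18874 and 21679 bp downstream of the nearest Glis1 TSS. The first peak covered chromosome 4 from 107457700 to 107458149 (450 bp, rank 393, log2 3.80) and the second 107460300 to 107461149 (850 bp, rank 441, log2 3.76). Their −log10 Poisson p-values were 40.3 and 45.5, against a list median of 9.55. These were the best-ranked summits inside any of the 7 genes. In all, 11 of the 14 peaks at this locus were within the gene, which spans 200471 bp, and 3 of these 11 had an FDR under 0.05. The last of these was 76 bp upstream of the start of a noncoding Glis1 transcript (rank 6585). The promoter of the coding transcripts had only weak peaks, 70 and 268 bp from a coding TSS (rank 7741, log2 2.28 and rank 9729, log2 2.16).

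The 2 other peaks under the threshold near Glis1 lay upstream of it, at other genes. The peak ranked 823 (log2 3.45) was 148 bp from a start of Ndc1, which encodes a membrane nucleoporin, 66659 bp from Glis1. The peak ranked 1128 (log2 3.30) was in an intron of Yipf1, 93004 bp from Glis1, and carried the match GACCACACA (C7A, with positions counted from the 5′ base of the consensus) 58 bp from its summit. It was the farthest of all 48 peaks from a family TSS. Just outside the limit, the closest peaks were 107519 bp from Glis2 (rank 6107, log2 2.42, nearest to Nmral1), 114829 bp from Glis2 (rank 3814, log2 2.67, nearest to Hmox2) and 117347 bp from Glis1 (rank 1966, log2 3.02).

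Glis2, whose loss causes a cystic kidney disease, lies in a gene-dense stretch of chromosome 16, and its locus held the most enriched peaks of the 48. None of the 12 peaks was inside the gene. Those nearest to it were a promoter peak from 4594200 to 4594949 (750 bp) with its summit 326 bp upstream of the TSS (rank 1705, log2 3.08) and a peak from 4586500 to 4586899 with its summit 8096 bp upstream (rank 1878, log2 3.04). Both had an FDR of 0 as listed. The promoter summit was in the GC-richest sequence of the locus, at 77.6%.

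The other 7 peaks under the threshold at this locus were at neighboring genes. The peak ranked 21 (log2 5.0, chromosome 16, 4658550 to 4659249) and the peak ranked 41 (log2 4.82, 4651600 to 4652699) were in introns of Coro7, which encodes a coronin of the Golgi, and also within the annotated extent of Dnaja3. Both reached the ceiling of 100 for the −log10 Poisson p-value, as did 96 peaks of the list. They were accompanied by weaker peaks ranked 2003 (log2 3.01) and 5828 (log2 2.44), 1320 and 440 bp from their stronger neighbors. The distance of these 4 summits from the nearest Glis2 start was 40284 to 47674 bp, and their nearest protein-coding start was that of Vasn, 11971 to 19361 bp away. The peak ranked 72 (log2 4.56) was 50 bp from a start of Tfap4, which encodes a helix-loop-helix transcription factor, and a peak of 1750 bp ranked 1263 (log2 3.23) was 158 bp from another Tfap4 start. The last (rank 4510, log2 2.58) was 6 bp from the start of Dnaja3, a mitochondrial co-chaperone. Which gene any of these sites acts on cannot be read from a peak list.

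Glis3, a regulator of pancreatic beta cells and thyroid, has a body of 421227 bp. It had 2 listed peaks, which is the median count of protein-coding genes. In its wide window this was 3.44 per Mb, against 6.29 per Mb over all placed chromosomes. Its 2 peaks sat at the ends of the gene. At the TSS, 80 bp inside the 5′ UTR, the peak was 200 bp long and had a log2 enrichment of 2.11 (rank 10554, FDR 0.234). At the other end, in the 3′ UTR, a peak on chromosome 19 from 28258700 to 28259249 had a log2 enrichment of 2.68 (rank 3665, FDR 0.00228). It counted as near a Glis3 start only through a noncoding transcript whose start is 24949 bp away. No other listed summit fell within the gene.

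In promoter share and base composition the 48 peaks were close to the list as a whole. Promoters, taken as 2 kb before to 1 kb after a protein-coding TSS with an overlap of at least 1 bp, held 20 of 48 peaks (41.7%, 28.8 to 55.7), against 49.2% of all placed peaks. With the starts of all annotated transcripts the shares were 56.2% at the family loci and 55.9% over the list. Among peaks with an FDR under 0.05, promoters held 7 of 19 (36.8%, 19.1 to 59.0), an interval that holds the 53.6% of all such peaks. The median GC content around the summit was 57.1%, against 55.9% over the list, and the median length was 250 bp in both. The 19 peaks under the threshold had a median length of 500 bp, against 400 bp for all 7282 such peaks, and a median ratio of observed to expected CpG of 0.431, against 0.624. Another listed summit lay within 10 kb for 36 of 48 peaks (75%), compared with 50.6% of placed peaks, 68.4% of those around Gli1, Gli2 and Gli3 and 60.7% of those around the HH pathway genes, but within 1 kb for 14 of 48 (29.2%), compared with 31.8%. The Coro7 peaks and the peak ranked 72 were CpG-poor. The ratio of observed to expected CpG around the peaks ranked 21, 41 and 72 was 0.216, 0.170 and 0.110, against a list median of 0.555.

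Few of these peaks held a GLI motif, and their difference from the list was not tested. A motif with at most 1 mismatch was present in 3 of 48 peaks (6.25%, 2.15 to 16.8), against 17.9% of all placed peaks. It was present in 6 of 96 windows placed 2 kb to either side of the same summits (6.25%), against 10.6% of such windows over the list. Among peaks with an FDR under 0.05 the motif was in 1 of 19 (5.26%, 0.935 to 24.6), against 20.8% of all such peaks, a share within that interval. That 1 was the Yipf1 peak described above. The Zic loci had no match in 20 peaks, which allows a share of up to 15.0% by the limit of 3 counts and up to 16.1% by the Wilson interval, and the Glis loci had 3 in 28 (10.7%, 3.71 to 27.2).

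The 3 matches were spread over the ranks. The exact consensus occurred in 1 of 48 peaks (2.08%, 0.369 to 10.9), against 2.17% of all placed peaks. It lay 125 bp from the summit of a peak near Tfap4 with an FDR of 0.0704 (rank 7928), outside the peak boundaries. The match at the Glis1 start was GACCAGCCA (C6G), on the minus strand 75 bp from its summit, in a peak with an FDR of 0.148. None of the 7 peaks among the 1000 highest-ranked had a match, against 20.8% of all peaks with an FDR under 0.05. The share among all 1000 was not computed, so the absence in 7 peaks cannot be read as a trait of them. Allowing 2 mismatches gave a match in 83.3% of the 48 peaks, but also in 80.4% of all placed peaks, and such matches do not separate these sites from others. The absence of a match says only that these letters are not in the window.

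**Figure D3:**
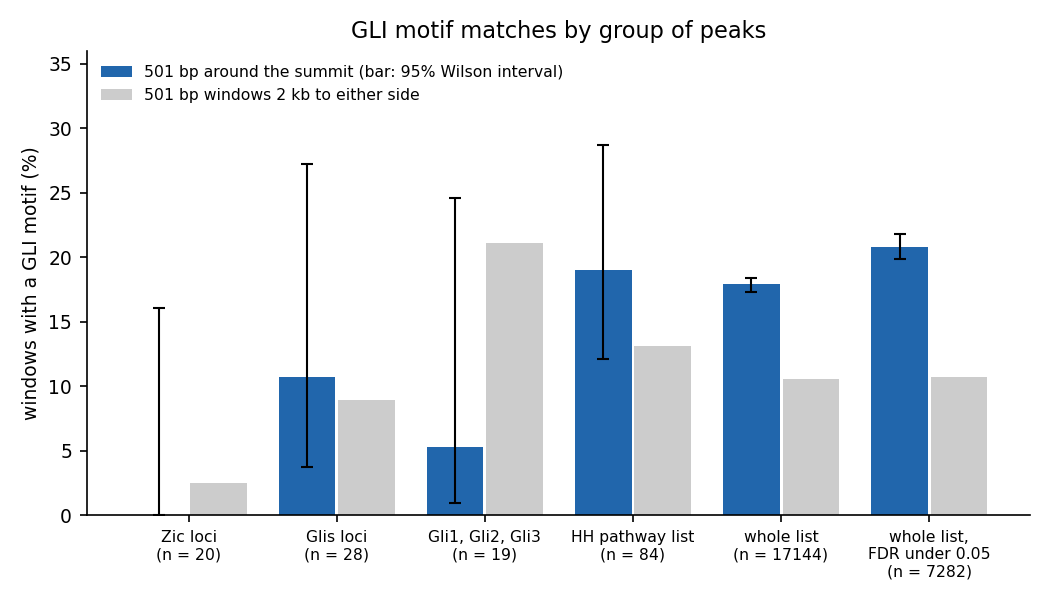
Bars give the percentage of windows, each 250 bp to either side of its center, with a GLI motif at most 1 mismatch from the consensus, in blue around the summits with 95% Wilson intervals and in gray 2 kb to either side. The 20 peaks of the Zic loci have none and the 28 of the Glis loci have 10.7%, while the whole list has 17.9% and its peaks with an FDR under 0.05 have 20.8%.

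The nearest relatives, Gli1, Gli2 and Gli3, had 19 peaks within 100 kb, 8 of them under the threshold (42.1%, 23.1 to 63.7), and a motif in 1 of 19 (5.26%, 0.935 to 24.6). The best was the peak at the Gli1 promoter (rank 7, log2 5.76), while the best at Gli2 ranked 728 (log2 3.51) and the best at the start of Gli3 ranked 2860 (log2 2.82). A list of 15 HH pathway genes, which includes these 3, had 84 peaks, 42 of them under the threshold, with a motif in 16 (19.0%, 12.1 to 28.7). Of the 15 genes, 13 had at least 1 peak under the threshold within 100 kb, and Shh and Ihh had none. The receptor gene Ptch1 resembled Glis2 in numbers, with 13 listed peaks and 8 under the threshold. They differed in position, since 9 of the Ptch1 peaks were inside the gene and none of the Glis2 peaks were. A motif was in 5 of the 13 Ptch1 peaks (38.5%, 17.7 to 64.5) and in 1 of 12 at Glis2, against 17.9% of all placed peaks. This difference was not tested.

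**Figure D4:**
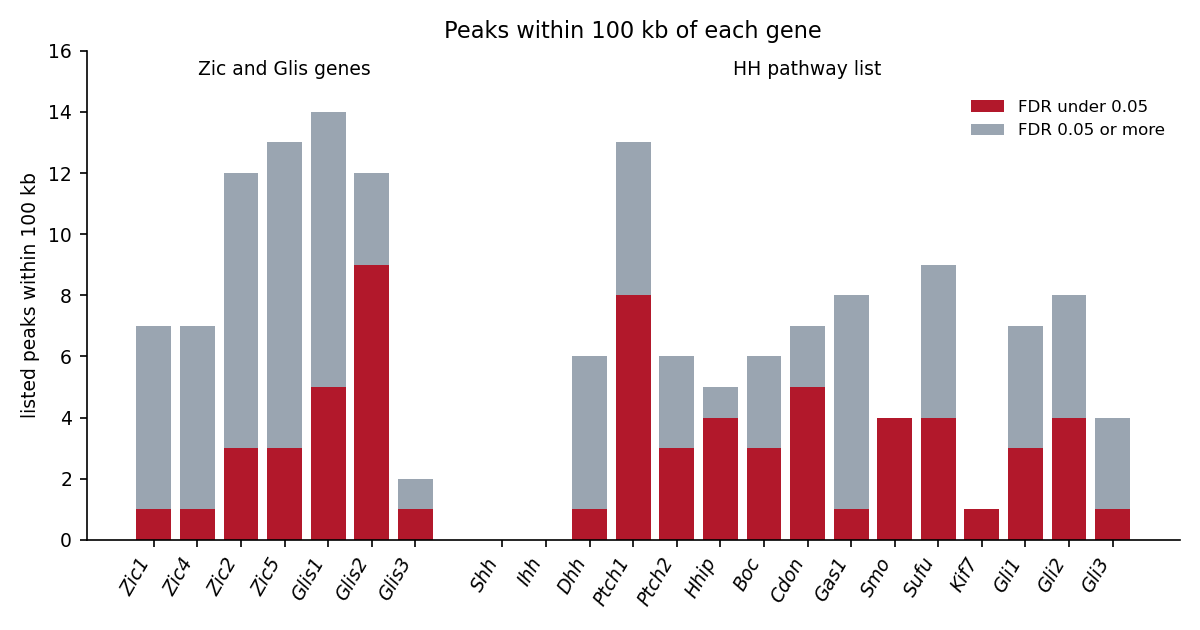
Bars count the listed peaks with a summit within 100 kb of each gene's annotated starts, with peaks under an FDR of 0.05 in red and the others in gray. With the starts of all transcripts Glis1 has the most listed peaks (14, but 9 with protein-coding starts alone) and Glis2 the most under the threshold (9), while Shh and Ihh have none. Peaks shared by neighboring genes, such as Zic2 and Zic5, are counted for each.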

How the data were processed

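The data were 1 peak list attached to the record of ChIP replicate 1. The study's methods name CisGenome as peak caller and both replicates, so the list was taken as a joint call, which it does not state itself. The submitters' processing notes name Bowtie2 2.2.5 and mm10. The deposited FDR of each peak is a q-value from the authors' caller. The deposited log2 fold enrichment is the authors' largest value of ChIP over input in a peak. The deposited T statistic is a score that the authors used for ranking. The deposited −log10 Poisson p-value stops at 100.

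From these, distances to the starts of all GENCODE M21 transcripts, positions relative to genes, GLI motif matches (GRCm38.p6 genome) and GC content were computed in Python 3.11.15 (pysam 0.24.0). No peak end lay beyond its chromosome, and 5 peaks on unplaced sequence were left out where positions mattered. Motif search and assignment were tested on simulated data. The genes named are the 7 members, the GLI and HH pathway genes, and those at or nearest to member peaks; Nmral1 and Hmox2, just outside the limit, were named after their values were seen. Members and lists were chosen with earlier results of these data known. The list gives no read depth per sample, and the study's methods state only a minimum. Alternatives changed the distance, TSS set, FDR threshold, promoter window and motif.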

Additional observations from a re-analysis of the deposited data

How the results depend on the processing

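Of the values that the alternatives gave for the 7 main quantities, 36 stayed within 1.5 times a count or within the 95% interval of a share or median, and 6 moved. The 48 listed peaks became 38 to 60 and the 19 under the FDR threshold 16 to 25. The median count per gene, 12, fell to 3 at an FDR under 0.05 and also to 3 at an FDR under 0.01. The median log2 enrichment rose from 2.24 to 3.08 at an FDR under 0.05, which selects on that value. The promoter share was 56.2% with starts of all annotated transcripts, and the motif share was 2.08% for the exact consensus and 83.3% with at most 2 mismatches. Over the list the corresponding shares were 55.9%, 2.17% and 80.4%. With protein-coding transcript starts alone Glis1 had 9 listed peaks and Glis3 had 1, and with gene 5′ ends alone 8 and 1, which places Glis1 below Zic5 (13), Zic2 and Glis2 (12 each). The 2-mismatch search and the GENCODE basic set were added after seeing the data. The T statistic and Poisson p-value are on other scales and gave no alternative median.

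No paired analysis was possible because a single list, taken as a joint call, was used, without separate values per replicate. Leaving out each replicate in turn was likewise not done. The effect of read depth on the weaker peaks was not tested.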
